A study of Mus musculus with 8 samples.

Results

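Collagen chains were examined in mouse liver on an expression array. Members were the non-control probes whose gene name begins with Col, digits, the letter a and digits, which gave 82 of the 41174 probes, under 41 of its 27962 gene names. Of these, 78 probes belonged to 40 collagen genes of 26 types, and 4 probes belonged to Col4a3bp, which encodes the ceramide transfer protein and is not a collagen chain. They were kept apart. The animals were wild-type male C57BL/6 mice that were 14 to 17 weeks old when the experiment began. One group of 4 received standard chow (STD) and the other group of 4 an atherogenic diet rich in fat and cholesterol, which also held cholic acid (ATH), both for 4 weeks. Each array held the liver RNA of 1 mouse. The 4 arrays of a diet lay on 1 slide, so that slide and diet cannot be told apart. ATH replicates 3 and 4 stood apart from the other arrays for several collagens, among them Col1a1, Col1a2 and Col3a1.

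Collagens are secreted proteins in which chains wind around each other as a triple helix, with glycine recurring at a fixed interval along each chain. Fibrillar collagens such as types I and III are cleaved outside the cell and assemble into the fibers that accumulate in scarred liver, where activated stellate cells and portal fibroblasts are known sources. Type IV collagen forms the sheet-like network of basement membranes. The remaining types coat fibrils, form beaded filaments, span the plasma membrane or, like types XV and XVIII, sit near basement membranes.

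The repeated glycine codon could be read in the probes themselves. A search of all 41174 probes for an open frame with the GGN codon recurring at the spacing of the triple helix found 3 probes, and all 3 were collagen probes. They are shown because they lie in the helix-coding part of fibrillar chains, with the glycine codons in capitals. Positions are those of the array design, build mm7: Col11a2 at chr17:32131401-32131567 on the plus strand, Col5a1 at chr2:27994034-27996457 on the plus strand and Col5a3 at chr9:20655471-20656200 on the minus strand. Each interval is longer than the 60 bases of the probe.
Col11a2: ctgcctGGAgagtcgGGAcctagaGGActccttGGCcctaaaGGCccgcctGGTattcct
Col5a1: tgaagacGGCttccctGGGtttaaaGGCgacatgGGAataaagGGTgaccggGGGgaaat
Col5a3: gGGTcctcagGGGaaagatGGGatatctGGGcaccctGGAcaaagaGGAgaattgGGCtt
Most of the values below come instead from probes at the 3′ end of a gene. The first 30 of 60 bases are given for those that carry the main values. In mm7 they lie at chr11:95060800-95060859 (Col1a1, plus strand), chr6:4493505-4493564 (Col1a2, plus strand), chr1:45585395-45585454 (Col3a1, plus strand) and chr8:11167020-11167079 (Col4a1, minus strand).
Col1a1: ttttcctttgcattcacctttcaaacttag
Col1a2: accaagaattccgtgtggaggttggccccg
Col3a1: ataagccaaactctctgaaaccccagcaaa
Col4a1: ttttcgtctctggagaaactgtactatcct

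Levels are log2 processed signal minus the 75th percentile of that array, called the scaled log2 signal here, so that 0 is the brightness of the 75th percentile probe. A probe's level is not comparable with that of another probe. In the fit over all probes (limma, two-sided, Benjamini-Hochberg), 0 of the 78 chain probes passed a false discovery rate of 5%, and 0 passed 1%, the threshold of the methods. Over the whole array 2.64% of probes passed 5%, with 0.94% higher and 1.7% lower in ATH, and 0.0899% passed 1%. At an unadjusted p under 0.05, 13 chain probes were higher and 9 lower in ATH, together 22 of 78, where all probes gave 6.86%, 17.2% and 24%. A log2 fold change of at least 1 was reached by 6 chain probes, against 3.48% of all probes. The chain probe with the lowest adjusted p, 0.0547, was that of Col14a1. All ATH arrays lay above all STD arrays for 6 chain probes, against 4.7% of all probes, and below them for 4, against 11.9%. Of the 78 probes, 51 were well above background on all 8 arrays, 6 on none and 21 on some, and none was saturated.

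The absence of calls depended on which probes entered the adjustment, and also on the scaling, background correction and variance model, as given in the last section. The detection filter of the methods was approximated here as well above background on at least 3 arrays of a diet, which left 31056 probes. With it, 8% of probes (3.06% higher and 4.94% lower) and 6 chain probes passed 5%. Higher in ATH were Col14a1 (adjusted p = 0.0317), Col3a1 (0.0327), Col6a2 (0.0393), Col5a1 (0.0399) and Col4a1 (0.0428), and lower was Col27a1 (0.0428), all by limma. The fit over all probes had been set as the main one, and these probes are therefore not called here.

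Types I and III had the largest differences. Col1a1 and Col1a2 encode the chains of type I collagen, the main fibril of scar. At the 3′-most probe of Col1a1, the scaled log2 signal was -1.71, -1.53, -1.07 and -0.20 in STD and -0.76, 0.18, 2.42 and 2.53 in ATH. ATH replicate 1 lay below STD replicate 4, and ATH replicates 3 and 4 lay far above every other array. The log2 fold change was 2.22 ± 0.76 (SE, n = 4 per diet, limma adjusted p = 0.129). A second probe gave 1.89 ± 0.60 (limma adjusted p = 0.113). Without ATH replicates 3 and 4 the log2 fold changes of these probes were 0.84 and 0.84. That fit was chosen because these 2 arrays stood apart. Where they are the highest arrays, leaving them out lowers the value by design. Such values, here and below, are a description and no test.

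Col1a2 was 1.01, 0.89, 1.18 and 1.50 in STD and 1.62, 1.89, 3.67 and 3.65 in ATH. All ATH arrays were above all STD arrays, the nearest by little. Its log2 fold change was 1.57 ± 0.49 (SE, limma adjusted p = 0.11), and 0.61 without ATH replicates 3 and 4. Col3a1, which encodes the homotrimeric chain that forms fibers together with type I, was 0.71, 0.83, 0.93 and 1.42 in STD and 1.70, 2.39, 3.38 and 3.39 in ATH. The groups did not overlap, and the same pair of ATH arrays was highest. The log2 fold change was 1.74 ± 0.39 (SE, limma adjusted p = 0.0555), and 1.07 without that pair. In a bulk sample, fewer or more cells of a type and less or more RNA per cell cannot be told apart.

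**Figure D1:**
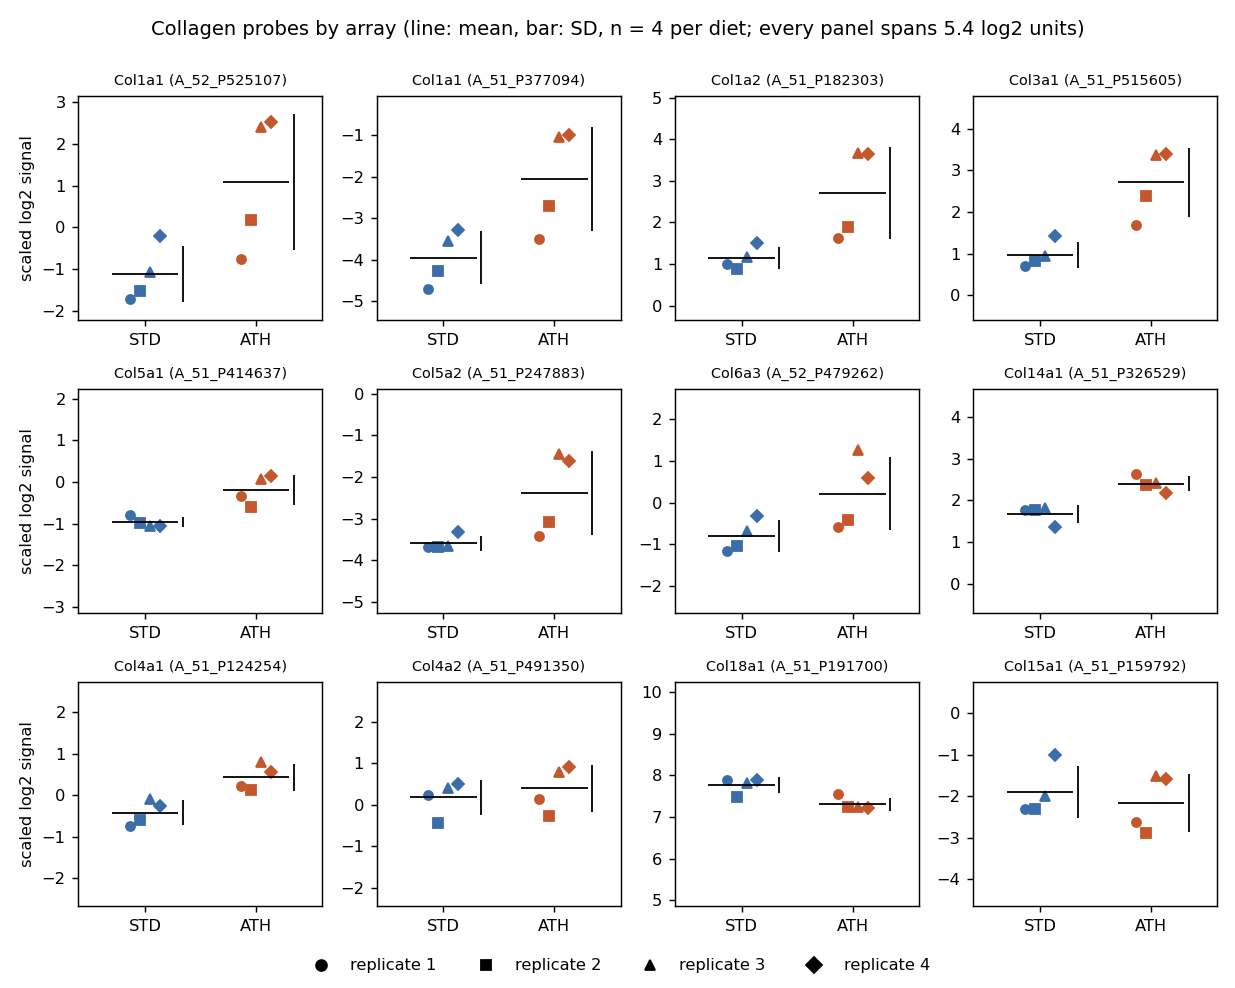
Scaled log2 signal of 12 collagen probes by diet and array, with the mean and SD of 4 arrays, and every panel spans the same number of log2 units. ATH replicates 3 and 4 are the highest arrays for both Col1a1 probes, Col1a2, Col3a1 and Col5a2, whereas the 4 ATH arrays of Col14a1 lie between 2.19 and 2.63.

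Type V collagen is built into type I fibrils and is known for limiting their diameter. Col5a1 was -0.80, -0.98, -1.05 and -1.05 in STD and -0.35, -0.61, 0.08 and 0.14 in ATH. The groups did not overlap, and the log2 fold change was 0.78 ± 0.19 (SE, limma adjusted p = 0.0656). Col5a2 was -3.69, -3.68, -3.66 and -3.32 in STD and -3.41, -3.08, -1.45 and -1.60 in ATH. ATH replicate 1 lay within the STD range, and the log2 fold change was 1.20 ± 0.44 (SE, limma adjusted p = 0.152), or 0.34 without ATH replicates 3 and 4. The fibrillar class was also split in a way that was not planned, with types I, III and V (a1 and a2 chains) set apart. Over the probes of these chains that were well above background on all 8 arrays, 7 of 7 log2 fold changes were above 0. Their median was 1.57. The remaining fibrillar chains include Col5a3 of type V (0.23 ± 0.22 and -0.30 ± 0.20, SE). Their 11 such probes had a median of -0.01, with 5 above 0. Among these, Col27a1, named after its values were seen, was -1.06, -1.42, -0.97 and -1.49 in STD and -1.69, -1.86, -2.23 and -2.03 in ATH at one probe. No ATH array reached the STD range (log2 fold change -0.72 ± 0.18, SE, limma adjusted p = 0.0694). Its other probes, both well above background on all 8 arrays, gave -0.44 ± 0.38 and 0.25 ± 0.31, with overlapping diets.

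The chains of type IV, the basement membrane collagen, did not share one pattern. Col4a1 was -0.74, -0.59, -0.09 and -0.25 in STD and 0.22, 0.12, 0.80 and 0.57 in ATH at its 3′-most probe. The groups did not overlap there (log2 fold change 0.84 ± 0.21, SE, limma adjusted p = 0.0694), whereas they did at its other probe (0.34 ± 0.24, limma adjusted p = 0.403). Col4a2, whose chain joins that of Col4a1 in the common type IV trimer, was 0.23, -0.42, 0.42 and 0.51 in STD and 0.14, -0.27, 0.80 and 0.90 in ATH. The diets overlapped, with a log2 fold change of 0.21 ± 0.31 (SE, limma adjusted p = 0.697). Col4a3, Col4a4 and Col4a5, whose chains form the type IV network of the kidney glomerulus, each had a probe with all ATH arrays below all STD arrays. These were 3 of 13 type IV probes, where 11.9% of all probes on the array lay wholly below. For Col4a4 the log2 fold change was -0.24 ± 0.13 (SE, limma adjusted p = 0.285), or 0.07 with spike-in scaling. Col4a5 was -4.51, -4.67, -4.04 and -4.22 in STD and -4.68, -4.97, -5.62 and -5.55 in ATH. That separation was narrow, since ATH replicate 1 was next to STD replicate 2 (log2 fold change -0.85 ± 0.25, SE, limma adjusted p = 0.0958). The Col4a3 probe was well above background on 3 STD arrays and 1 ATH array, and the 3′-most Col4a3 probe, well above background on none, gave 0.47. These 3 genes were named after their values were seen.

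Col4a1 and Col4a2 lie head to head on chromosome 8. In the RefSeq promoter table (GRCm38.p6) their start sites fall at the 2 ends of a 22-base stretch at chr8:11312805-11312826. The stretch is shown on the plus strand because both genes start within it and are read through it on opposite strands, so that their annotated first bases overlap.
Col4a1 and Col4a2: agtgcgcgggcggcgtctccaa
Of the 40 collagen genes, 32 had an entry in that table. The 120 bases before the start are given for Col1a2 (chr6:4505498-4505617, plus strand) and Col3a1 (chr1:45311418-45311537, plus strand), both of which had ATH arrays wholly above STD, with the letters CCAAT in Col1a2 and TTATAA in Col3a1 in capitals.
Col1a2: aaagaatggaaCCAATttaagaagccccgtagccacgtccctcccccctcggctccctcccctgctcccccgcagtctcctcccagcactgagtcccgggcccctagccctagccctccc
Col3a1: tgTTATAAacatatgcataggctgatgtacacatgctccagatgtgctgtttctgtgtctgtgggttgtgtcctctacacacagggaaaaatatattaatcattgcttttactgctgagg
TTATAA holds TATAA on both strands, overlapping. Col5a1 and Col4a1 also had a probe with ATH arrays wholly above STD. The 120 bases before their starts held neither CCAAT nor TATAA on either strand, but the whole promoter entry of Col4a1, which is longer, held CCAAT. Shares were counted over whole promoter entries, not over these 120 bases, and the 35 collagen entries belonged to the 32 genes. On either strand, CCAAT occurred in 37.4% of all 32851 promoter entries and in 12 of 35 collagen entries, and TATAA in 24.9% and in 7 of 35. A match of letters is a description only.

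Among the other classes, type VI collagen, which forms beaded filaments around cells, had the most positive values. Col6a2 was -4.68, -5.13, -4.93 and -4.59 in STD and -4.28, -4.21, -3.60 and -4.01 in ATH at one probe. The diets did not overlap (log2 fold change 0.81 ± 0.20, SE, limma adjusted p = 0.0643). With normexp background correction it gave -0.0061. The second Col6a2 probe gave 0.64 ± 0.25, or 0.11 with that correction, and Col6a1 gave 0.56 ± 0.29. Col6a3 was -1.17, -1.05, -0.68 and -0.33 in STD and -0.60, -0.42, 1.27 and 0.60 in ATH at its 3′-most probe. The diets overlapped (1.02 ± 0.42, SE, limma adjusted p = 0.186). Col14a1, a collagen that coats fibrils, was 1.78, 1.77, 1.83 and 1.35 in STD and 2.63, 2.38, 2.42 and 2.19 in ATH. All ATH arrays were higher, ATH replicates 3 and 4 did not stand apart, and the log2 fold change was 0.72 ± 0.16 (SE, limma adjusted p = 0.0547), or 0.82 without them. Leaving out those 2 arrays gave 0.49 for Col5a1, 0.14 for Col6a1, 0.59 and 0.38 for Col6a2, 0.30 for Col6a3 and -0.25 for Col4a2 at the probes above, and -0.47 for Col4a5.

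Types XV and XVIII had negative values at 4 of 4 probes. Over all probes on the array, 30.1% of values were above 0, with a median of -0.19. Col18a1, whose C-terminal fragment is endostatin and which hepatocytes are known to make, was 7.88, 7.49, 7.81 and 7.89 in STD and 7.54, 7.24, 7.23 and 7.21 in ATH. ATH replicate 1 lay above STD replicate 2, and the log2 fold change was -0.46 ± 0.15 (SE, limma adjusted p = 0.114). This value was -0.15 with spike-in scaling and -0.02 with no scaling. Col15a1 gave -0.26 ± 0.41 and -0.31 ± 0.30, and both values turned positive under those scalings, at 0.05 and 0.00122 with spike-ins and 0.19 and 0.14 with no scaling.

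By class, the median log2 fold change was 0.25 over 25 fibrillar probes, -0.24 over 13 basement membrane probes and -0.21 over 40 other probes. The median of all probes on the array was -0.19, with 30.1% above 0, whereas 16, 5 and 15 probes of the 3 classes were above 0. Over the probes well above background on all 8 arrays, the class medians were 0.24, 0.14 and -0.16, with 28 of 51 chain probes and 32.6% of all such probes above 0. The order of basement membrane against other collagens therefore rested on the dim probes, and with 1 probe per gene the median of the other class was 0.15. The 75th percentile was higher in ATH by 0.45 and the spike-in probes by 0.14 on the log2 scale, and the median of all probes moved from -0.19 to 0.12 with spike-in scaling and to 0.25 with no scaling.

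**Figure D2:**
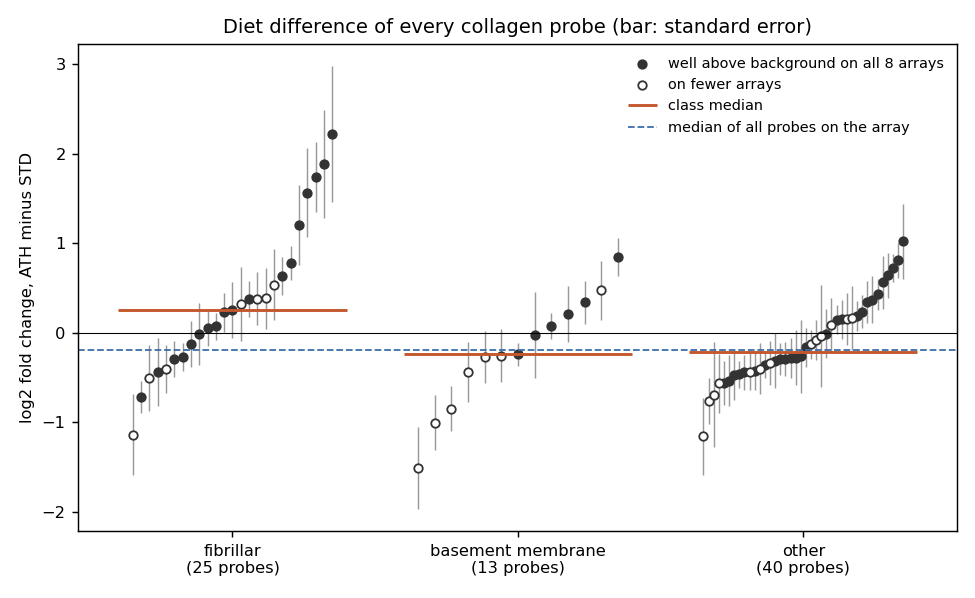
Log2 fold change (ATH minus STD) of the 78 chain probes by class, with standard errors. Filled points were well above background on all 8 arrays. The fibrillar median lies at 0.25, above the median of all probes at -0.19, and the highest values belong to filled points.

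**Figure D3:**
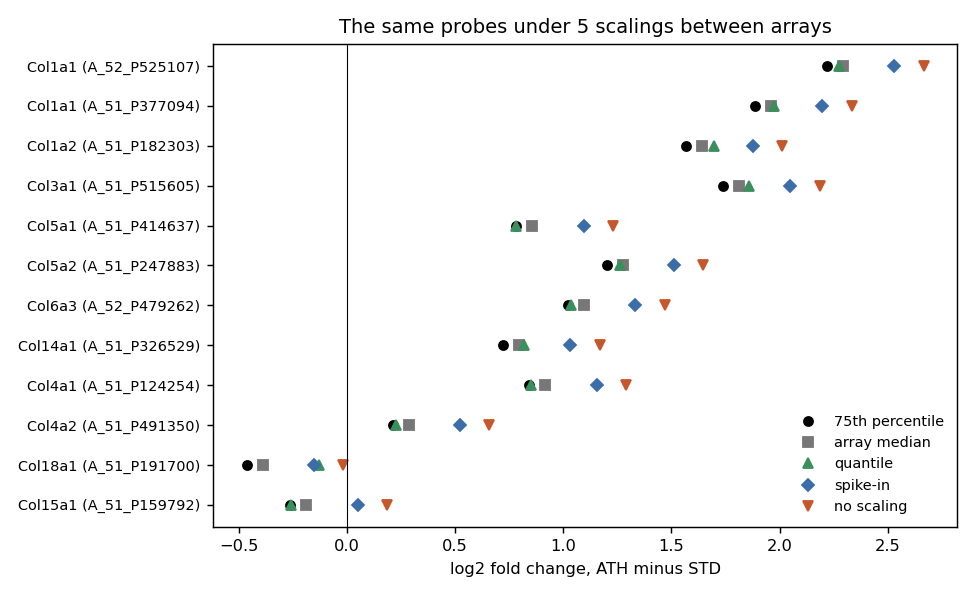
Log2 fold change (ATH minus STD) of 12 collagen probes under 5 scalings between arrays. Col1a1, Col1a2 and Col3a1 stay above 1 under all 5, whereas Col15a1 crosses 0.

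Probes of one gene often disagreed. Of the 28 genes with more than 1 probe, 11 had log2 fold changes of one sign and 17 had both signs, and the median spread within a gene was 0.68. Among the 17 genes with more than 1 probe well above background on all 8 arrays, 9 had one sign and 8 had both, with a median spread of 0.39. For 17 of the 28 genes the 3′-most probe had a larger absolute value than the farthest one. In Col5a1 both probes were well above background on all arrays, yet the helix-coding probe printed above, 48285 bases upstream in genomic distance, gave 0.05 ± 0.20. The middle probe of Col3a1 gave -1.14 ± 0.45, with 3 STD arrays and 1 ATH array well above background. The probe of Col6a3 35494 bases upstream gave -0.16 ± 0.22. Probes of a gene share the RNA and are no replicates.

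**Figure D4:**
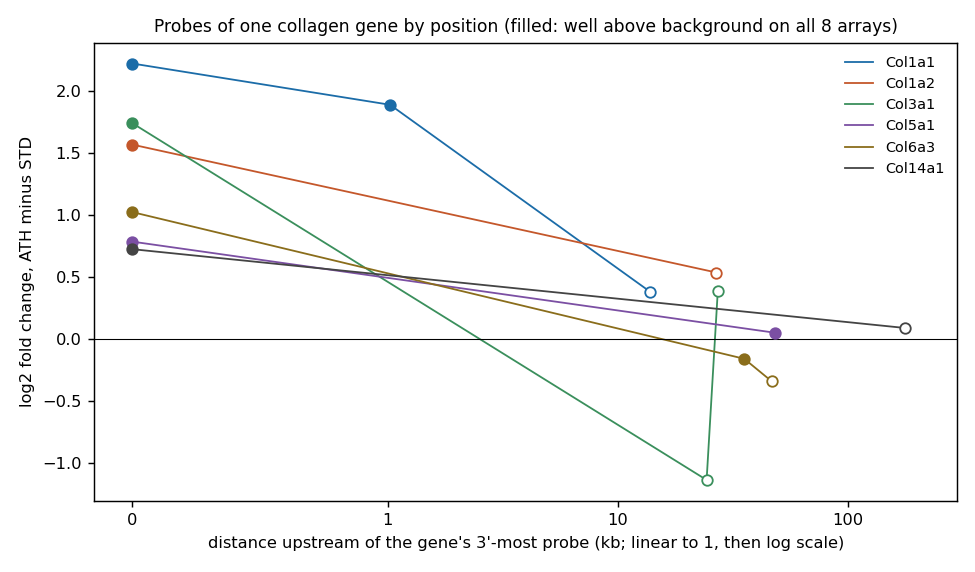
Log2 fold change (ATH minus STD) of each probe against its genomic distance upstream of the gene's 3′-most probe, for 6 collagen genes. The 3′-most probes range from 0.72 to 2.22, and the probes over 10 kb upstream lie at or below 0.53. Most of the latter are open points, not well above background on all 8 arrays. The genes shown are 6 of the 28 with more than 1 probe. Some others, such as Col11a2 and Col27a1, had a higher value at the farthest probe than at the 3′-most one.

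Scaling by a constant per array drops out when 2 collagen genes are compared within an array, whereas quantile normalization and normexp background correction do not. In all, 6 such pairs were tested with two-sided exact permutation tests over the 70 assignments of the arrays, where the smallest p is 0.0286, and adjusted over the pairs. Col1a2 against Col4a2 was 1.75 ± 0.36 (SD) in STD and 3.22 ± 0.56 in ATH, all ATH arrays being higher, a change of 1.47 (exact p = 0.0286, adjusted p = 0.0857). Col3a1 against Col4a1 changed by 1.15 (exact p = 0.0286, adjusted p = 0.0857), also without overlap. Col1a1 gained 1.46 on Col4a1 and 2.46 on Col18a1 in the mean, each with overlapping arrays (exact p = 0.0571, adjusted p = 0.0857). Col5a2 against Col4a1 differed by 0.61 (exact p = 0.2, adjusted p = 0.24). Col1a1 against Col3a1 differed by 0.31 (exact p = 0.4, adjusted p = 0.4). None of the 6 pairs passed 5% after adjustment.

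**Figure D5:**
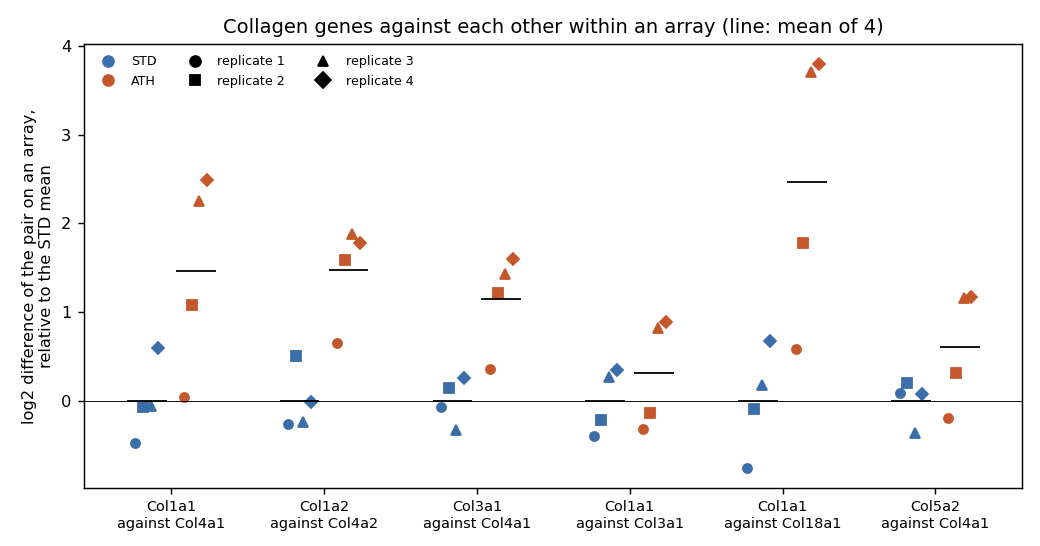
Within-array log2 difference of 6 pairs of collagen genes, set relative to the STD mean, with the mean of 4 arrays as a line. The ATH arrays of Col1a2 against Col4a2 and of Col3a1 against Col4a1 all lie above the STD arrays, and ATH replicate 1 is the lowest ATH array in every pair.

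Genes that make, bind or degrade collagen were read from 9 lists of 98 genes, of which 95 were on the array with 161 probes. Of these probes 5 passed 5% as higher in ATH and 0 as lower, in 4 genes, against 0.94% and 1.7% of all probes on the array. The median over genes was 0.24, against -0.19 over all probes. Pdgfa, a growth factor for stellate cells, was 2.52, 2.84, 2.99 and 3.06 in STD and 3.87, 4.11, 3.64 and 4.35 in ATH, and rose by 1.14 ± 0.19 (SE, limma adjusted p = 0.0321). Nid1, which links type IV collagen to laminin, rose by 0.87 ± 0.13 (limma adjusted p = 0.0252). Loxl2, which crosslinks collagen, rose by 1.10 ± 0.22 (limma adjusted p = 0.0461), and Mmp13, a collagenase well above background on only 2 STD arrays, by 1.28 ± 0.27 (limma adjusted p = 0.0493). Tgfb1, the main inducer of fibrillar collagen genes, had a log2 fold change of 1.22 ± 0.33 (limma adjusted p = 0.0795), and Timp1, an inhibitor of collagenases, 0.21 ± 0.26 (limma adjusted p = 0.642). These calls were not stable. No list probe passed as higher when any single STD array, ATH replicate 1 or ATH replicate 3 was left out, and blocking on replicate number gave a limma adjusted p of 0.079 for Pdgfa, 0.0855 for Nid1, 0.0811 for Loxl2 and 0.0881 for Mmp13. With normexp background correction Mmp13 gave 0.24 (limma adjusted p = 0.186), and with quantile normalization the limma adjusted p of Loxl2 was 0.0536.

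Markers of the cells in the tissue were measured beside the collagens. Hepatocyte markers were the brightest list in both diets. Its summed scaled signal was 3081 to 3181 in STD and 1981 to 2620 in ATH. Of its 9 genes, 0 had a log2 fold change above 0, against 30.1% of all probes. All ATH arrays lay below all STD arrays for 6 of the 9, against 11.9% of all probes. Of the 9, 1 passed as lower, Tat (-1.05 ± 0.15, SE, limma adjusted p = 0.0212), against 1.7% of all probes. The limma adjusted p of Tat was 0.079 with the block and 0.0651 with quantile normalization. The median log2 fold change of this list was -0.42, but -0.11 with spike-in scaling and 0.03 with no scaling. Of 11 stellate cell markers and 8 myofibroblast markers, 0 passed the test, and 7 and 5 had values above 0. The fixed examples Acta2 and Lrat had log2 fold changes of 0.27 ± 0.13 and 0.35 ± 0.23, whereas Cnn1, Tagln and Myl9 of the myofibroblast list were at -0.55, -0.21 and -0.07 and Ecm1, Hand2 and Gfap of the stellate list at -0.30, -0.18 and -0.14. These 6 and Spp1 were named after their values were seen. Pdgfrb, from the growth factor list, had 0.59 ± 0.19. The summed signal of the myofibroblast list was 27.1 to 37 in STD and 38.6 to 124 in ATH, with Spp1, which other liver cells also make, as the largest part of the sum, at 6.50 on the scaled log2 scale in ATH replicate 4. The median log2 fold change of that list was 0.14. The summed signal of the stellate list was 34.3 to 45.6 in STD and 29.1 to 52.9 in ATH. Of 11 macrophage markers 11 had values above 0, and for 9 all ATH arrays lay above all STD arrays, against 4.7% of all probes. As higher, 4 passed, where 0.94% of all probes were called higher and 1.7% lower. All 4 had a limma adjusted p over 0.05 with the block (0.0555 to 0.0929). The summed signal of that list was 61.6 to 67 in STD and 110.6 to 412 in ATH. In the main processing Gpnmb was at least 32.4-fold higher in ATH, since it was not well above background on any STD array. With normexp background correction its log2 fold change was 3.0044, which lies below that bound. Like type I collagen, Gpnmb and Itgax were highest in ATH replicates 3 and 4. The part of these cells in the collagen values was not tested.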

How the data were processed

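Liver RNA of 4 STD and 4 ATH mice was hybridised to 1-color Agilent arrays, 1 mouse each. The authors extracted spot intensity values with Agilent Feature Extraction 9.5 (from the submitters' processing notes); the deposited processed signals are background-subtracted. The deposited table of log2 values was used as an alternative. Spots of a probe were averaged without outlier-flagged spots, and the 75th percentile of the array over non-control probes was subtracted. Diet was tested with limma 3.58.1 in R 4.3.3 over all 41174 probes, two-sided, with Benjamini-Hochberg adjustment, and the fit was tested on simulated data. Gene pairs were tested by exact permutation. Spots well above background made up 72.3 to 77.8% of an array, and the number of arrays limits the precision.

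Groups came from the labels. The members and the gene lists were chosen with earlier results of these data known. Chains named in any case were Col1a1, Col1a2, Col3a1, Col5a1, Col5a2, Col4a1, Col4a2, Col6a1, Col6a2, Col6a3, Col14a1, Col15a1 and Col18a1; from each list at most 3 called genes in each direction, with Acta2, Pdgfrb, Lrat, Timp1 and Tgfb1. In all, 16 alternatives, and leaving out each of 8 arrays, were run. Probe positions are mm7, as the array files give them; promoters are from RefSeq (GRCm38.p6).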

Additional observations from a re-analysis of the deposited data

Results flagged for a closer look

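Over the probes of the named genes and the 6 pairs of collagen genes, 122 groups of 4 arrays were examined for an array far from the others, and 8 were set apart; chance sets about 1 in 20 groups apart. As scaled log2 signal, these were Col18a1 in ATH replicate 1 at both probes (7.54 and 6.36) and in STD replicate 2 at one (6.23), Col5a2 in STD replicate 4 (-3.32), Col6a2 in ATH replicate 1 (-4.24), Col14a1 in STD replicate 4 (1.35), Col4a2 in STD replicate 2 (-2.30) and the middle Col3a1 probe in ATH replicate 4 (-7.13).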

How the results depend on the processing

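In all, 16 alternatives, 2 of them chosen after seeing the data, and the fits leaving out each of 8 arrays were run. A further fit, without ATH replicates 1 and 2, was also chosen and run after seeing the data. It called many more probes over the whole array and was left out, since it keeps only the ATH arrays with the highest collagen signal. The slide as a block was not run, since each slide holds 1 diet. Where no cause is given, the cause was not tested. With arrays left out one at a time, chain probes called higher ranged from 0 to 3 and lower from 0 to 0, list probes called higher from 0 to 13 and lower from 0 to 2, genes with probes of one sign from 11 to 15, and the class medians from 0.17 to 0.39 (fibrillar), -0.26 to -0.07 (basement membrane) and -0.26 to -0.11 (other). Over the whole array the calls went from 112 without STD replicate 3 to 2801 without ATH replicate 2, against 1086. The pair changes ranged from 1.12 to 1.94 (Col1a1 against Col4a1), 1.34 to 1.74 (Col1a2 against Col4a2), 0.998 to 1.41 (Col3a1 against Col4a1), 2.02 to 3.09 (Col1a1 against Col18a1), 0.12 to 0.53 (Col1a1 against Col3a1) and 0.42 to 0.88 (Col5a2 against Col4a1). Probes that turned were those of Col4a2 (-0.33 to 0.37), Col5a1 in the helix (-0.11 to 0.15), Col14a1 upstream (-0.17 to 0.25) and Col15a1 (-0.47 to 0.038).

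Filters and variance models moved the counts. Chain probes called higher and lower were 5 and 1 with the deposited values, with the detection filter of the methods, with probes detected on all 8 arrays and with the upper 75% by mean signal, and 4 and 1 with an intensity trend. List probes called higher and lower were 12 and 3, 11 and 4, 15 and 6, 11 and 4, and 15 and 3 in that order. The methods' t-test with unequal variance was run here over all probes, whereas the paper ran it after a detection filter and listed probes passing 1%. That combination was not run here. Over all probes the test called 0 of 41174 after Benjamini-Hochberg adjustment (7981 at an unadjusted p under 0.05). List probes called were therefore 0, as they were with the main test at 1%. Over the probes detected on all 8 arrays the basement membrane median was 0.14, and with 1 probe per gene that of the other class was 0.15.

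With the replicate number as a block, 0 probes passed 5% (10333 at an unadjusted p under 0.05), so list probes called higher were 0, and the changes of 1.47 for Col1a2 against Col4a2 and 1.15 for Col3a1 against Col4a1 had exact p = 0.125, the smallest that 4 pairs allow. Same-numbered arrays correlated at 0.0661 to 0.144 over all probes, each best with its own number, and at 0.13 to 0.305 over probes detected on all 8 arrays. The labels do not say that the numbers pair the mice, and whether every value passed 0.1 depended on the probes used, so that the pairing is unsettled and the block values are printed beside the list calls that they end. Without ATH replicates 3 and 4, list probes called higher were 0, Col1a2 against Col4a2 changed by 1.12 and Col3a1 against Col4a1 by 0.78 (both exact p = 0.0667, the smallest possible), and Col1a1 against Col3a1 turned to -0.23, as did single probes of Col4a2 (-0.25), Col4a1 (-0.019), Timp1 (-0.23), Col27a1 (0.24) and Col5a3 (0.025).

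Scaling moved levels together. With array median scaling and with quantile normalization 1 chain probe was called higher. The Col4a2 probe turned to 0.049 under the first, and under the second the basement membrane median turned to 0.024, the other class median became -0.000441 and a Col6a3 probe 0.0016. With no scaling, 11 chain probes and 47 list probes were called higher, the class medians were 0.70, 0.21 and 0.24, and 19 genes had probes of one sign. Probes of Col15a1 (0.19 and 0.14), Col4a4 (0.21), Col18a1 (0.086), Col27a1 (0.0060), Col4a2 (0.42), Col5a3 (0.15) and Col6a3 (0.29 and 0.11) turned positive. With spike-in scaling, 4 chain and 17 list probes were called higher, the fibrillar and other medians were 0.56 and 0.10, and probes of Col15a1 (0.049 and 0.0012), Col4a4 (0.070), Col4a2 (0.29), Col5a3 (0.016) and Col6a3 (0.15) turned positive. With normexp background correction, 13726 of 41174 probes were called, 12207 of them lower. In that setting 6 chain probes were called higher and 19 lower, 24 and 25 list probes, and the fibrillar median was -0.12. There Col1a1 against Col3a1 turned to -0.32 and Col5a2 against Col4a1 to -0.035, with probes of Col14a1 (-0.27), Col4a3 (-0.24), Col2a1 (-0.0012), Col5a1 (-0.13), Col6a2 (-0.0061), Col1a2 (-0.082), Col11a2 (-0.055), Col27a1 (-0.10), Col1a1 (-0.13) and Col3a1 (-0.19). The 27 chain probes not well above background on every array limit what can be read from the dim chains.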
